A study of Solanum lycopersicum with 96 samples.

Results

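The BABA lists of the tomato (Solanum lycopersicum) cultivar Moneyberg were set directly against each other: the genomic regions listed for seed of mother plants given the elicitor beta-aminobutyric acid, BABA, during time window 2 (BABA TW2) and those listed for seed of mother plants treated in time window 3 (BABA TW3). All regions of both lists were taken, 31130 for BABA TW2 and 31115 for BABA TW3, out of 237372 regions in the 8 lists of the series. Every list came from whole-genome bisulfite sequencing of seed DNA and stands for a group of 12 libraries, 2 for each of 6 replicates. Per the labels, 10 seeds were combined for an extraction and 6 plants supplied the seed of a treatment. They do not tell which replicate came from which plant. The other lists are Moneyberg control, Ina TW2 and MeJA TW3 (methyl jasmonate), and Bolstar control, BABA TW2 and Ina TW2. Both BABA groups share cultivar, tissue and elicitor, and differ in the time window. The sources used here do not give the plant stage of the windows, the dose of BABA or the depth reached, only an aim of 10-fold coverage. The series description counts BABA in window 2 among the seed batches chosen for the better pathogen resilience of their daughter plants, and does not mention BABA in window 3. With 1 pooled list a group there is no replicate error, so no test was possible and every difference below describes these lists.

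BABA is a non-protein amino acid that primes plants: treated plants respond faster and more strongly to a later pathogen attack. In Arabidopsis it binds an aspartyl-tRNA synthetase, and primed states have been linked to DNA methylation, which plants carry on cytosines in the CG, CHG and CHH contexts. CG and CHG methylation is copied at replication by maintenance methyltransferases, while small RNAs guide new methylation, also to CHH sites, and DNA glycosylases remove it. A seed joins the embryo and endosperm with a seed coat that is purely maternal tissue, so DNA of a whole seed mixes the tissues of daughter and mother plant. The regions carry names beginning with HYPO and a whole number in the score column, called the score here. The files state neither a methylation level nor what the score counts, so listed and not listed do not stand for a direction of methylation.

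The lists were nearly the same in size. BABA TW2 covered 452 Mb and BABA TW3 451 Mb, 56.0% and 55.9% of the 12 chromosomes up to the last listed base. Median region length was 10.2 kb in both, the lowest score was 69 in both, and the median score was 162 in both. They shared 437 Mb, which is 96.7% of the listed bases of BABA TW2 and 96.9% of those of BABA TW3. A further 29.2 Mb stood in only 1 of both lists, 15.0 Mb in BABA TW2 and 14.1 Mb in BABA TW3. Bases in both lists made up 0.937 of the bases in either (the Jaccard index). The other 9 pairs of Moneyberg lists gave 0.929 to 0.939, so pairs of unlike treatment lay both above and below the BABA pair. Ranked from the closest, the BABA pair came 3 of 10, behind the pairs of each BABA list with Ina TW2.

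Regions without a single base in the other list were few and nearly balanced in number. In BABA TW2 918 of 31130 regions (2.95%, 95% Wilson interval 2.77% to 3.14%) had no base in BABA TW3. In BABA TW3 908 of 31115 regions (2.92%, 2.74% to 3.11%) had none in BABA TW2. These intervals express the counting error of the regions alone, and plants may differ by more. Both shares are the background rates of the comparison, 2.95% and 2.92%, against which the shares by chromosome and score below are read. The exclusive regions of both lists together came to 2.93% of all regions, against 2.78% to 4.41% in the other 9 Moneyberg pairs. When only exclusive regions with a score of at least 85 were counted in every pair, the BABA pair had 891 and the others 796 to 947.

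The near balance joined opposite differences. On chromosome 9 BABA TW2 had 482 exclusive regions and BABA TW3 337. On the other 11 chromosomes BABA TW2 had 436 and BABA TW3 571, and BABA TW3 had the larger number on each of those 11. The gap ran from 1 region on chromosome 8 (41 and 42) to 33 on chromosome 1 (61 and 94). The shares of exclusive regions on chromosome 9 were 21.4% for BABA TW2 and 16.1% for BABA TW3. On the other chromosomes they were 0.93% to 2.14% and 1.53% to 2.62%, with the lowest on chromosome 7 in both lists. Listed sequence followed the same contrast. BABA TW2 listed 1553 kb more than BABA TW3 on chromosome 9, and the other 11 chromosomes summed to a difference of -0.649 Mb (BABA TW2 minus BABA TW3). Chromosome 1 with -352 kb and chromosome 8 with -188 kb contributed most to the latter. On chromosomes 2, 7, 11 and 12 BABA TW2 listed 36.9 kb to 87.4 kb more.

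**Figure D1:**
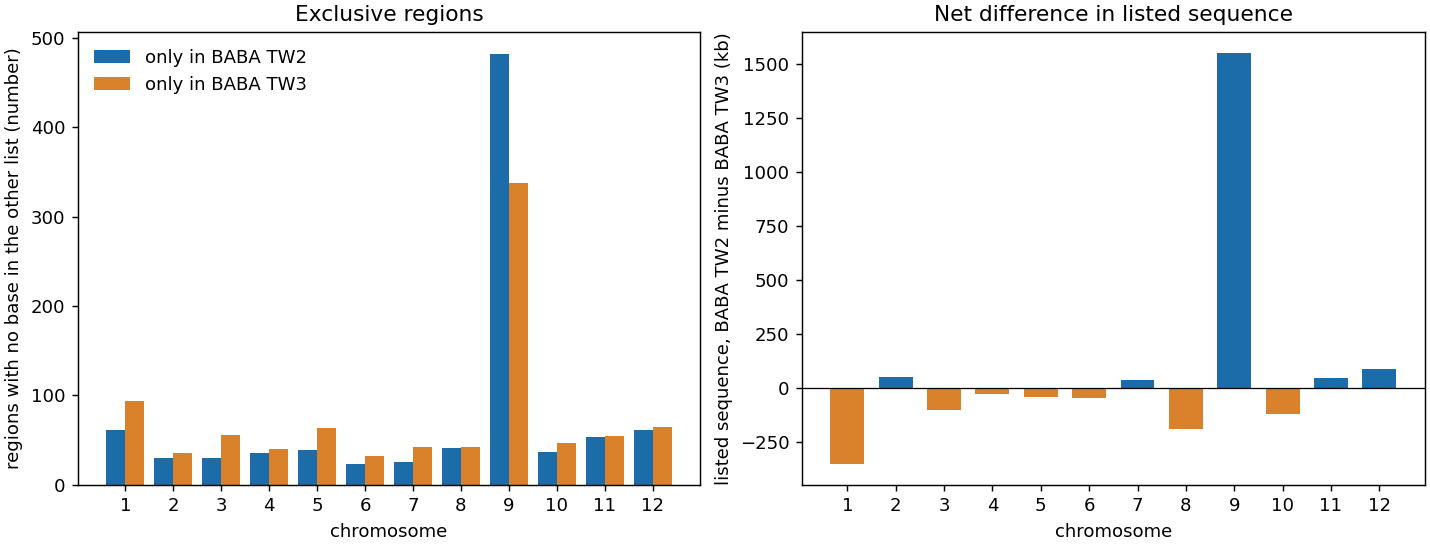
Left, number of regions with no base in the other list on each chromosome, in the BABA TW2 list (blue) and the BABA TW3 list (orange). Right, listed sequence in kb of BABA TW2 minus that of BABA TW3. Chromosome 9 has 482 and 337 exclusive regions and 1553 kb more in BABA TW2, and on every other chromosome the orange bar on the left is the higher one.

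The excess of BABA TW3 outside chromosome 9 lay at the lowest scores. Although the lowest score was 69 in both lists, these scores were filled unequally. BABA TW2 had 15 regions with a score of 69 and BABA TW3 79, and at a score of 70 the numbers were 119 and 208. From 72 upwards neither list was the higher one throughout, with 281 and 278 regions at 72 and 322 and 317 at 75. Of the 134 regions of BABA TW2 with a score of 69 or 70, 9 were exclusive, and of the 287 of BABA TW3, 135 were. Over scores 69 to 74 and without chromosome 9, exclusive regions numbered 91 in BABA TW2 and 239 in BABA TW3. At scores of 75 or more, a limit chosen after seeing these counts, they numbered 345 and 332, so that the larger number was now that of BABA TW2. The same limit left 454 and 294 on chromosome 9. The rule by which low-scoring regions entered each list is unknown, and its part in the exclusive counts was not tested otherwise.

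**Figure D2:**
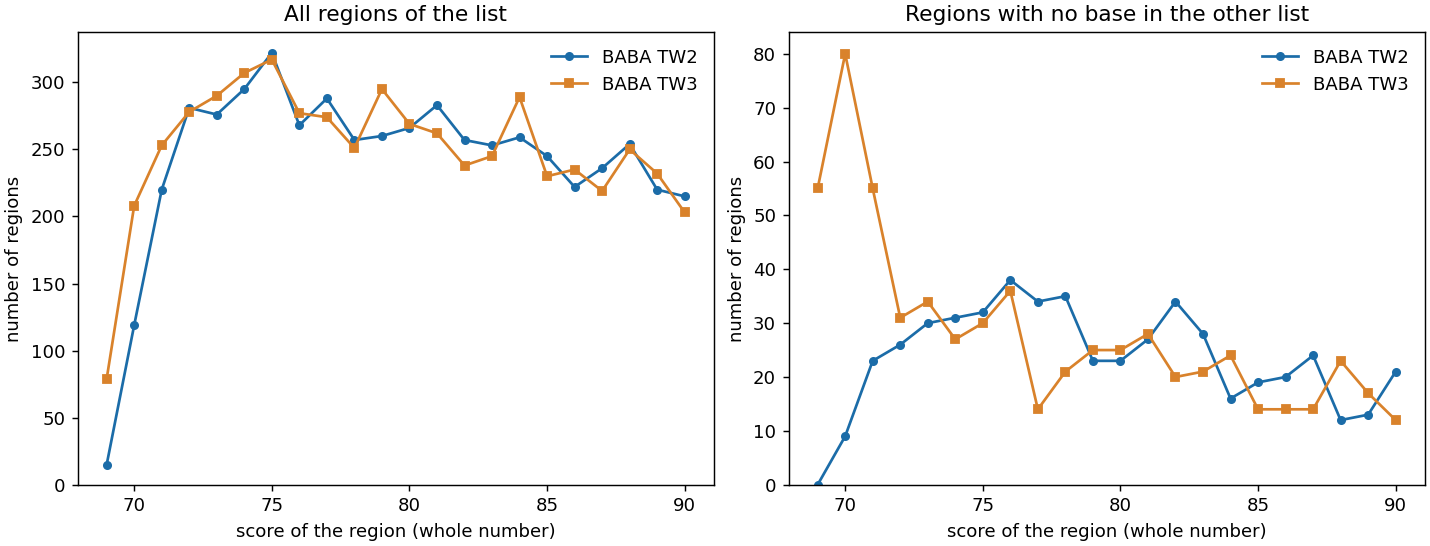
Number of regions at each score from 69 to 90, for all regions (left) and for regions with no base in the other list (right), in BABA TW2 (blue circles) and BABA TW3 (orange squares). At a score of 70 BABA TW3 had 208 regions, 80 of them exclusive, against 119 and 9 in BABA TW2, and from 72 upwards neither list is the higher one throughout.

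Exclusive regions were small and poor in score per length. Their median score was 87 in BABA TW2 and 81 in BABA TW3, and their median lengths 6.38 kb and 5.83 kb. Exclusive regions at or above the median score of the whole list numbered 15 and 9. Over all their bases the score was 14.0 and 14.3 per kb, against 17.3 per kb for the whole of either list. The nearest region of the other list lay a median of 4.05 kb from an exclusive BABA TW2 region and 3.68 kb from an exclusive BABA TW3 region. In 237 and 248 cases it lay less than 1 kb away, and in 5 cases and 1 case more than 100 kb away. The lists covered 56.0% and 55.9% of the chromosomes, so most places lie near a listed region. Distances from other places were not computed, so these are not shown to be short. The share of exclusive regions fell with score, in BABA TW2 from 9.87% at scores of 69 to 74 to 0.463% at 150 to 199, with a peak of 11.6% at 75 to 79. In BABA TW3 it fell from 19.9% to 0.37% over the same classes. Of the regions with a score of 200 or more, 4 of 12677 in BABA TW2 and 2 of 12702 in BABA TW3 were exclusive, all 6 on chromosome 9. Score grew with length, and a short region can more easily miss the other list. The part of the overlap rule in this fall was not tested.

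Leaving chromosome 9 aside, exclusive regions were more frequent towards the chromosome ends, where tomato genes are mostly dense, than in the largely gene-poor interior, which is rich in transposable elements. The ends are not all alike. In the first 5 Mb of chromosome 2, BABA TW2 listed 58.9% to 88.8% of each 1 Mb. In the first and last 5 Mb of the chromosomes 4.86% of BABA TW2 regions (130 of 2675) and 5.39% of BABA TW3 regions (145 of 2688) were exclusive. Between the ends the shares were 1.17% (306 of 26205) and 1.62% (426 of 26331). Regions near the ends were smaller, with a median score of 104 in both lists against 182 in the interior. Among regions with scores below 100 the shares were 9.52% at the ends and 4.70% between them in BABA TW2, and 10.4% and 6.73% in BABA TW3. Among regions with scores of 100 or more they were 0.962% and 0.339% in BABA TW2, and 1.17% and 0.364% in BABA TW3, from 14, 72, 17 and 77 exclusive regions. The ends thus had the higher share in both score classes of both lists. These classes do not hold score equal. From 100 upwards the median score was 144 at the ends and 227 between them in BABA TW2, and 145 and 228 in BABA TW3. Below 100 the medians were 81 and 84, and 81 and 83. The part of score in the contrast was not tested further.

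Chromosome 9 stood apart from the others in shared bases, exclusive regions and boundaries, though not in the balance of divided regions. It held 33.2% of the bases listed in only 1 of both lists, and 2.88% of the shared bases. Its Jaccard index was 0.565, against 0.949 to 0.963 on the other chromosomes. Of its 1385 regions that paired 1 to 1, 31.6% had both boundaries identical, against 67.8% to 76.0% elsewhere. The chromosome was as far apart in other Moneyberg pairs, with Jaccard indices of 0.559 to 0.577, and 777 to 879 exclusive regions against 819 for the BABA pair. Its share of single-list bases was 29.3% to 33.1% in the other 9 pairs, so the BABA pair was the highest of 10 by a narrow margin, with no spread to judge it.

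The surplus of BABA TW2 on chromosome 9 extended over the interior. Divided into bins of 1 Mb, 52 of 73 bins had the larger listed share in BABA TW2. From 5 to 20 Mb this held for 14 of 15 bins, with a mean share of 32.4% in BABA TW2 and 28.0% in BABA TW3. From 20 to 40 Mb the means were 18.8% and 16.9%, and from 40 to 60 Mb 26.7% and 24.0%, with 15 of 20 bins higher in BABA TW2 in each stretch. In the first 5 Mb the means were 18.8% and 19.4%, and beyond 60 Mb 25.5% and 25.6%. Over the whole chromosome BABA TW2 listed 18.2 Mb, the most of the 5 Moneyberg lists, and BABA TW3 16.6 Mb. MeJA TW3 listed 18.0 Mb, control 16.9 Mb and Ina TW2 16.3 Mb. The value of BABA TW2 was thus nearest to that of MeJA TW3, and the value of BABA TW3 lay between those of control and Ina TW2. These are totals of single pooled lists under different elicitors, and the part of the time window was not tested. In Bolstar the values were 17.0 Mb for BABA TW2, 18.6 Mb for control and 18.6 Mb for Ina TW2.

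**Figure D3:**
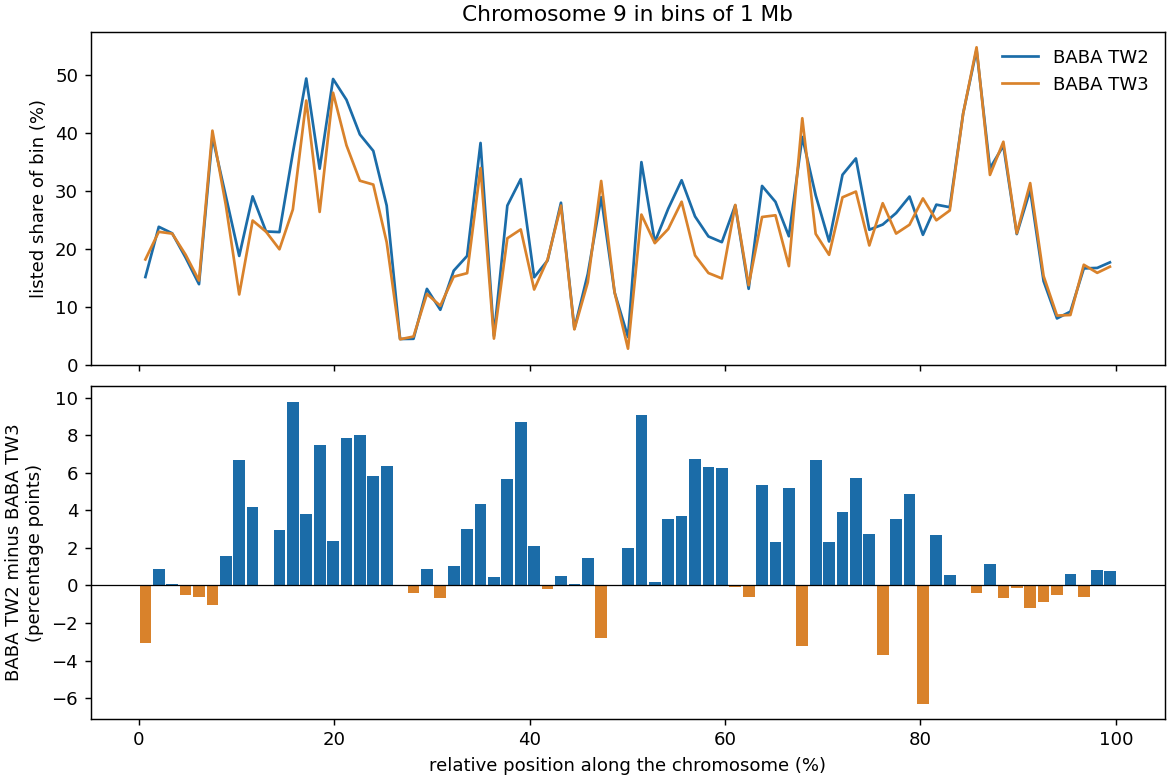
Chromosome 9 in bins of 1 Mb, by relative position along the chromosome in percent. Top, share of each bin listed in BABA TW2 (blue) and BABA TW3 (orange). Bottom, the difference in percentage points, blue where BABA TW2 is higher, as in 52 of 73 bins, with a highest value of 9.79 and a lowest of -6.29.

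The 5 bins with the largest surplus of BABA TW2 all lay on chromosome 9. From 11 to 12 Mb BABA TW2 listed 36.6% and BABA TW3 26.8%. In that bin MeJA TW3 listed 38.9%, control 30.0% and Ina TW2 27.8%, and the Bolstar lists 34.6% for BABA TW2, 40.4% for control and 37.0% for Ina TW2. BABA TW2 was thus below MeJA TW3 and the Bolstar control and Ina TW2 lists, and BABA TW3 was the lowest of all 8 lists. From 37 to 38 Mb BABA TW2 listed 35.0% and BABA TW3 25.9%, and 31.3% of the bases of this bin differed between both lists. Of the 5 bins with the largest surplus of BABA TW3, 2 lay on chromosome 9, 2 on chromosome 1 and 1 on chromosome 10. From 58 to 59 Mb of chromosome 9 BABA TW3 listed 28.7%, the highest of the 8 lists, and BABA TW2 22.4%. From 52 to 53 Mb of chromosome 1 BABA TW3 listed 86.7% and BABA TW2 81.2%, where the other 6 lists had 83.4% to 86.8%. Outside chromosome 9, 335 of 735 bins were higher in BABA TW2, 381 in BABA TW3 and 19 equal, and the median size of the difference was 0.646 percentage points. A difference of more than 5 percentage points occurred in 18 bins of chromosome 9 and in 1 bin elsewhere.

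Most regions that touched the other list had a single counterpart. Of the BABA TW2 regions 23297 (74.8%) overlapped exactly 1 BABA TW3 region that overlapped no other. In 16383 of these pairs (70.3%) both boundaries fell on the same base, so 52.6% of the BABA TW2 list and 52.7% of the BABA TW3 list were the same intervals. They covered 212 Mb, and 9008 of them were also identical in the other 3 Moneyberg lists, 2997 in all 8 lists. The score was equal in 15311 of the 16383 intervals (93.5%). It was higher in BABA TW3 in 519 and in BABA TW2 in 553, with a median difference of 1 where it differed and a largest of 30. The longest identical region ran from 47741896 to 47936114 on chromosome 4, 194 kb with a score of 2809 in both lists, and the same interval stood in 1 further list. The other 9 Moneyberg pairs had 15631 to 17046 identical intervals.

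Boundary moves went about equally often each way. In 2909 pairs only the start moved, in 2953 only the end, and in 1052 both. Of the 7966 moved boundaries, 4121 made the BABA TW2 region longer and 3845 the BABA TW3 region, adding 5.96 Mb and 5.78 Mb. The median move was 670 bases, with quartiles of 156 and 2274 bases, and the largest 16884 bases. In 3277 pairs BABA TW2 contained the BABA TW3 region, in 3058 the reverse, and in 579 the region was shifted. On chromosome 9 49.8% of the boundaries moved, by a median of 1298 bases, against 15.0% and 554 bases on the other chromosomes. The moved sequence was poorer in score than the rest of the region. Where only 1 boundary had moved, the added segment carried 13.5 per kb and the shared part 17.4 per kb.

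Of the 10 largest boundary moves, 5 in each direction, 9 were on chromosome 9. The largest lay at 57241596 to 57258479, the end of a region of 28.1 kb and score 282 in BABA TW2 that measured 12.6 kb with a score of 143 in BABA TW3. This segment was listed over 100% in MeJA TW3, 97.7% in Ina TW2 and 63.4% in control of Moneyberg, and over 76.4%, 63.4% and 54.7% in BABA TW2, control and Ina TW2 of Bolstar. BABA TW3 was the only list without any of it. The largest move in favour of BABA TW3 added 11.9 kb at 18690199 to 18702071, where the region measured 6.72 kb in BABA TW2 and 19.7 kb in BABA TW3. Here Moneyberg control and Ina TW2 listed 0%, MeJA TW3 91.2% and the 3 Bolstar lists 99.6% each. The move outside chromosome 9 was on chromosome 3, at 32087672 to 32099068, where BABA TW3 began 11.4 kb earlier. BABA TW2 listed none of that segment, and the other 6 lists 97.3% to 100%.

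Long regions differed more by being divided than by being absent. A single BABA TW2 region faced several BABA TW3 regions in 1663 cases, and a single BABA TW3 region several BABA TW2 regions in 1671 cases. A further 777 clusters joined several regions of each list. The divided regions were long, with median lengths of 27.3 kb in BABA TW2 and 26.9 kb in BABA TW3, and 90.9% and 90.96% of them faced exactly 2 pieces. A longer region has more room to touch several regions, and the part of the overlap rule in their length was not tested. The gaps between the pieces were short, with a median of 152 bases in BABA TW3 and 167 bases in BABA TW2, and 32.1% and 27.0% of them were under 100 bases. In 1082 and 1073 cases the outer boundaries were the same in both lists, so that the score of the gaps could be read as a difference. It came to 8.96 and 8.12 per kb, against 17.6 and 17.4 per kb within the pieces. By chromosome the direction varied. Chromosome 2 had 126 regions single in BABA TW2 and 75 single in BABA TW3, chromosome 7 had 178 and 140 and chromosome 11 had 145 and 105. The other 9 had more that were single in BABA TW3, led by chromosome 4 with 101 and 138.

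The region with the highest score of the BABA TW2 list was divided in BABA TW3 by a very short gap, an example picked after its values were seen. It ran from 12674752 to 12832724 on chromosome 6, over 158 kb with a score of 9210. In BABA TW3 the same stretch was held by 2 regions of 92.0 kb and 65.95 kb, with scores of 5264 and 3945. The gap between them, at 12766721 to 12766774, had 54 bases, and the scores differed by 1 in all. Moneyberg control, MeJA TW3 and the 3 Bolstar lists listed this gap in full, and Ina TW2, like BABA TW3, did not. Of these, only Moneyberg control held the region undivided. MeJA TW3 and Ina TW2 were divided between 12690884 and 12690923. From 12516037 to 12832724 the Bolstar lists had 43 to 50 regions, against 3 in BABA TW2 and 4 in BABA TW3. The region of score 9210 had 58.3 per kb of score in BABA TW2, where the whole list had 17.3. The neighbouring region at 12516037 to 12668185, with a score of 8485, was identical in both lists.

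Among the divided regions with the most pieces, that at 37033664 to 37106222 on chromosome 10 was a single region of 72.6 kb in BABA TW2 and 5 regions in BABA TW3. The BABA TW3 pieces left out 0.844 kb in all, and their scores summed to 1126 against 1129. Moneyberg control, Ina TW2 and MeJA TW3 each had 3 pieces there, Bolstar control 1, BABA TW2 3 and Ina TW2 2. In the other direction, the stretch from 57191725 to 57298729 on chromosome 12 was a single region of 107 kb in BABA TW3 and 5 regions in BABA TW2, which left out 0.472 kb in gaps and 5.13 kb at the outer ends. All 3 Bolstar lists had it as a single region, and Moneyberg control, Ina TW2 and MeJA TW3 had 4, 5 and 3 pieces. At 40419572 to 40469369 on chromosome 1 BABA TW2 had 1 region of 49.8 kb and BABA TW3 5 that left out 5.60 kb. MeJA TW3 also had a single region there, control 4 and Ina TW2 3. Farther along chromosome 1, at 40489714 to 40503996 and 0.135 kb from the nearest BABA TW2 region, stood an exclusive BABA TW3 region, ranked 3 by score among the exclusive regions of that list, with 14.3 kb and a score of 190. It was listed in full in all 6 other lists, so BABA TW2 was the only one without it.

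**Figure D4:**
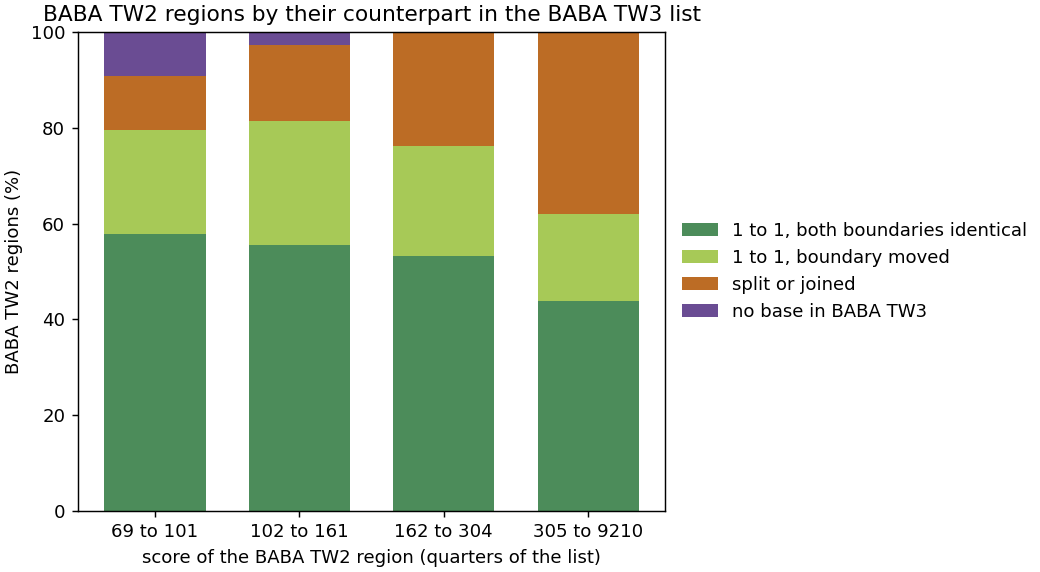
BABA TW2 regions in 4 groups of rising score, stacked in percent by their counterpart in the BABA TW3 list. The share with no base in BABA TW3 goes from 9.17% at scores of 69 to 101 to 0 at 305 to 9210, and the share in split or joined clusters from 11.2% to 38.0%.

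By score, the fate of BABA TW2 regions shifted from absence to division. Length rose with score, from a median of 5.57 kb in the lowest group to 26.8 kb in the highest. Under a rule of at least 1 shared base, a longer region is less likely to touch nothing and more likely to touch several. The part of this rule in the shift was not tested. Among BABA TW2 regions with scores of 69 to 101, 57.9% were identical in BABA TW3, 11.2% were split or joined and 9.17% had no base there. Among those with scores of 305 or more, 43.9% were identical, 38.0% split or joined and 0% without a base. Of all bases listed in only 1 of both lists, 39.9% lay in exclusive regions, 52.3% at the outer ends of regions present in both, and 7.81% in gaps between pieces. The larger part of the difference thus lay at the edges of regions present in both lists. The longest stretch with regions and no difference at all, by number of regions, was at 51375007 to 51803736 on chromosome 10, where 23 regions or parts of regions covering 250 kb were listed alike base by base.

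The exclusive regions with the highest scores were mostly on chromosome 9, 8 of the top 10 in each list. The first of BABA TW2, at 13267992 to 13282694 on chromosome 9, measured 14.7 kb with a score of 247. In Moneyberg 69.9% of its bases were listed in MeJA TW3, 46.3% in control and 26.0% in Ina TW2. In Bolstar 80.5% were listed in control, 86.9% in Ina TW2 and 0% in BABA TW2, so this region was missing from BABA TW3 of Moneyberg and BABA TW2 of Bolstar and from no other list. The first of BABA TW3 was at 31115738 to 31126260 on chromosome 9, 10.5 kb with a score of 244. It was listed over 91.03% in Moneyberg control, 95.5% in Ina TW2 and 97.5% in MeJA TW3, and over 100%, 96.2% and 62.6% in Bolstar BABA TW2, control and Ina TW2. Thus 7 lists held bases of it and Moneyberg BABA TW2 did not. Another exclusive BABA TW3 region, at 58409478 to 58420328 on the same chromosome and with a score of 185, lay 70.985 kb from any BABA TW2 region, and was touched by all 6 other lists over 25.6% to 79.8%.

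Outside chromosome 9 the top exclusive region of BABA TW2, at 17408476 to 17415334 on chromosome 12, measured 6.86 kb with a score of 182. It was listed in full in Moneyberg control and the 3 Bolstar lists, over 78.0% in Ina TW2 and 80.6% in MeJA TW3, and its nearest BABA TW3 region was 0.068 kb away. On chromosome 7, the BABA TW2 region at 47972249 to 47982205 (9.96 kb, score 178) was listed over 25.7% to 74.2% in all 6 other lists. On chromosome 2, the BABA TW3 region at 34637284 to 34645090 (7.81 kb, score 175) was listed in full in Ina TW2, over 55.4% in control and not at all in MeJA TW3 of Moneyberg. In Bolstar it was listed in full in BABA TW2 and control and over 45.9% in Ina TW2. Every one of the 20 top exclusive regions was touched by at least 4 of the other 6 lists, and all 20 by Moneyberg control. Their scores were 160 to 247. Among all regions of the BABA lists from a score of 85 upwards, each other list touched 95.1% to 98.5%, so being touched was usual. In 11 of the 20, all 6 other lists held bases, 5 from BABA TW2 and 6 from BABA TW3. There only the other BABA list lacked the region, and that absence is how exclusive regions were chosen.

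How often the exclusive regions were touched by the other Moneyberg lists depended on their scores. Of all 918 exclusive regions of BABA TW2 and all 908 of BABA TW3, Moneyberg control touched 49.2% and 56.2%, Ina TW2 46.7% and 53.0%, and MeJA TW3 50.5% and 40.4%. The BABA TW3 regions were thus the more often touched by control and Ina TW2, and the less often by MeJA TW3. The lowest score was 65 in control, 68 in Ina TW2 and 71 in MeJA TW3, and the part of these limits in that order was not tested. Among the 509 and 382 exclusive regions with a score of at least 85, the shares were 55.0% and 54.7% for control, 51.7% and 49.5% for Ina TW2, and 59.5% and 57.1% for MeJA TW3. Over all regions of the BABA lists from that score upwards, each of these lists touched 98.1% to 98.5%, and over all regions at any score 95.8% to 97.3%. All 3 touched 27.5% and 25.7% of the exclusive regions from 85 upwards, against 96.6% and 96.9% of all regions from that score. None of the 3 touched 18.7% and 17.8% of the exclusive regions, against 0.507% and 0.382% of all regions. Without chromosome 9 the shares touched by none of the 3 were 23.1% and 17.8%, against 0.267% and 0.193% of all regions. Exclusive regions were chosen for absence from the other BABA list, and few reached the median score of their list. The part of this choice and of score in these contrasts was not tested. Exclusive regions in no other list of the series numbered 25 of 509 (4.91%) in BABA TW2 and 23 of 382 (6.02%) in BABA TW3 from a score of 85 upwards. Over all regions of the BABA lists, the other 6 lists left 0.110% and 0.0964% untouched from 85 upwards, and 0.350% and 0.328% at any score. At any score, exclusive regions in no other list numbered 90 (9.80%) and 85 (9.36%). Their median scores were 78 and 77. The lowest score was 85 in Bolstar BABA TW2, 78 in Bolstar control, 71 in Bolstar Ina TW2 and 65 to 71 in the other Moneyberg lists. The part of these limits was not tested. The highest-scoring regions in no other list were on chromosome 9. That of BABA TW2 was at 8969961 to 8977819, with a score of 140, and that of BABA TW3 at 56982331 to 56988764, with a score of 111.

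Bases listed in only 1 of both BABA lists were also looked up in the lists of other treatments, some of which share a time window with BABA TW2 or BABA TW3. Ina TW2, given in window 2, listed 46.5% of the bases found only in BABA TW2 and 47.4% of those found only in BABA TW3. MeJA TW3, given in window 3, listed 49.6% and 47.4%, the larger share being that of BABA TW2. Moneyberg control listed 43.2% and 47.0%. Bolstar BABA TW2, the same elicitor and window in another cultivar, listed 62.5% of the bases found only in Moneyberg BABA TW2 and 63.3% of those found only in BABA TW3. Without chromosome 9 the latter order turned, to 72.3% and 68.8%, while Ina TW2 listed 49.58% and 49.996%, MeJA TW3 50.1% and 47.4% and control 41.9% and 47.3%. Bases were not looked up in Bolstar control and Ina TW2. Of the exclusive regions outside chromosome 9, Bolstar control touched 58.0% for BABA TW2 and 50.8% for BABA TW3. Bolstar Ina TW2 touched 64.4% and 55.0%, and Bolstar BABA TW2 51.6% and 45.5%. From a score of 85 upwards all 3 Bolstar lists had the larger share for BABA TW3. The exact positions of the 7966 moved boundaries were looked up in the same way in the other 3 Moneyberg lists. Control had the BABA TW2 position and not that of BABA TW3 in 37.5% and the reverse in 37.4%. For Ina TW2 these shares were 39.5% and 34.9%, and for MeJA TW3 38.2% and 35.5%, so both lists had the BABA TW2 position more often. All 3 lists had the BABA TW2 position in 1289 cases (16.2%) and the BABA TW3 position in 1101 (13.8%), and in 2709 (34.0%) they were divided between both positions. All shares come from single pooled lists, so the size of difference that replicates would show by themselves is unknown, and the part of the time window was not tested.

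**Figure D5:**
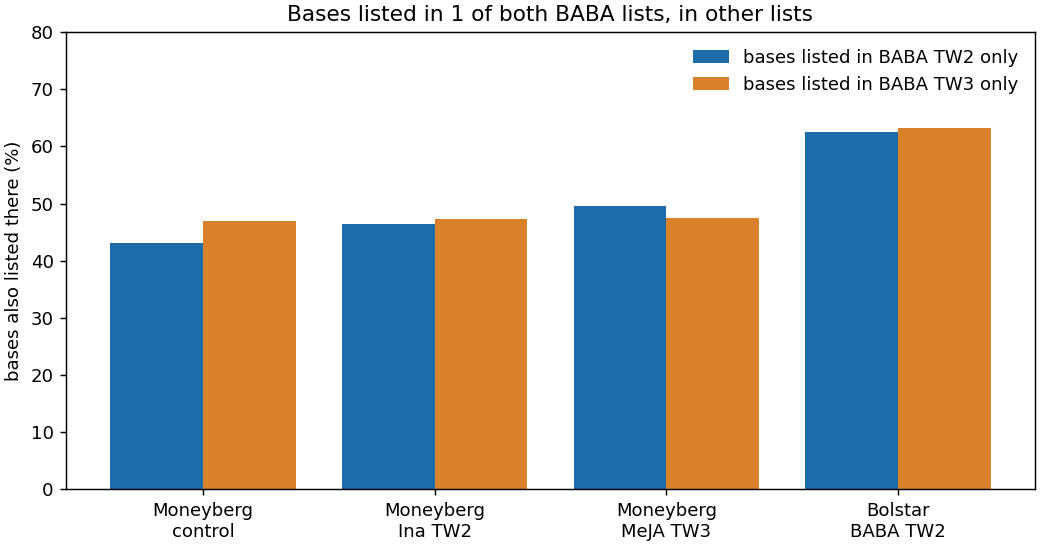
Share in percent of the bases listed in only BABA TW2 (blue, 15.0 Mb) and in only BABA TW3 (orange, 14.1 Mb) that were also listed in 4 further lists. Both bars lie within a few percentage points of each other in each list, from 43.2% and 47.0% in Moneyberg control to 62.5% and 63.3% in Bolstar BABA TW2. Bolstar control and Ina TW2 are not shown.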

How the data were processed

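Reads were trimmed with Trim Galore, per the submitters' processing notes. The aligner, region caller, genome build, cytosine context and way of pooling are not stated in the labels. The authors deposited 1 list of regions a group, with 6 columns and no header, and the score column holds a whole number per region that grew with length (Pearson r across regions 0.899 and 0.904 in the BABA lists). Lists were assigned to groups by the list that the description of each library names. The labels give 96 libraries and the series description 90. Lists were compared with Python 3.11.15, pandas 2.3.3 and numpy 2.4.6. Regions sharing at least 1 base were linked, and linked clusters were sorted into 1 to 1 pairs, divided regions and regions without a counterpart. This sorting was tested on simulated lists with known changes. Coordinates count from 1, and chromosome length is the last listed base. Regions were not assigned to genes, since the build is not given. Named are the 10 highest-scoring exclusive regions of each list, 5 divided regions, 5 moved boundaries and 5 bins in each direction, from which examples are given. The regions and these rules were chosen with earlier results of these data known. Alternatives changed the overlap rule, the score limit, the boundary tolerance, the joining of near regions and the use of chromosome 9. No test was run: each group is 1 list, read depth is unknown, and Wilson intervals cover counting error only.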

Additional observations from a re-analysis of the deposited data

How the results depend on the processing

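Over 10 results and 11 alternatives, 26 of 63 values stayed within a set limit, 32 moved and 5 changed sign. The limit was 1.5 times for counts and net bases. For shares and the Jaccard index it was the counting error with every base taken as independent. That error is very narrow, so every alternative share and Jaccard index was marked as moved, even 0.939 against 0.937. The tally therefore says little about how stable the shares were. The surplus of 10 exclusive regions in BABA TW2 became -135 when chromosome 9 was left out, -18 when both lists were limited to scores from their median upwards and -16 with regions less than 1 kb apart joined. It was 21 when no region of the other list within 1 kb was allowed, 207 at scores of at least 85 in both lists, 214 at scores of at least 75 in both lists and 173 when exclusive regions of at least 75 were counted against the whole other list. All settings with a limit of 75 were chosen after seeing the data. The net surplus of 0.904 Mb in BABA TW2 became -0.649 Mb without chromosome 9 and -0.225 Mb at the median score, and was 1.71 Mb at 85 and 1.82 Mb at 75. Leaving out chromosome 9 only shows where the surplus lay, and no cause was tested. Exclusive regions in BABA TW2 and BABA TW3 numbered 3901 and 3886 under reciprocal overlap of 50%, 436 and 571 without chromosome 9, and 345 and 332 without it at scores of at least 75. At the median score BABA TW2 had 610.

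The Jaccard index was 0.930 at 85, 0.888 at the median, 0.939 with joined regions, 0.956 without chromosome 9 and 0.935 at 75. The share of single-list bases on chromosome 9 was 29.5% at 85, 10.4% at the median, 33.9% with joined regions and 32.9% at 75. That in exclusive regions was 41.4%, 42.1%, 30.4% and 39.8% in the same order, and 29.9% without chromosome 9. Regions single in BABA TW2 or BABA TW3 and divided in the other fell to 708 and 725 at the median and to 717 and 718 with joined regions, which closes short gaps by construction. Identical pairs numbered 7577 at the median, where fewer regions enter. Raising the score limit removes the smaller part of a divided region, so regions can lose their counterpart by it. No paired analysis was possible because the lists pool all replicates, and leaving out single replicates was not run for the same reason.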
